A study of Rattus norvegicus with 30 samples.

Results

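The pair rno-miR-16-5p and rno-miR-486 was followed in urinary exosomes of rats after renal ischemia-reperfusion injury (IRI). Both were taken by name from the deposited day tables, and they are 2 of the 122 miRNAs listed on any day. Small RNA from urinary exosomes of 6 male Sprague-Dawley rats was sequenced at days 1, 2, 3, 7 and 14 after surgery, which gave 30 libraries. Rats 1, 2 and 13 had the pedicles of both kidneys clamped for 25 minutes at an age of 10 weeks and were then reperfused (IRI, 3 rats), and rats 3, 6 and 9 had the same operation with no clamping (sham, 3 rats). Urine of each rat was collected at all 5 days. Urine collects RNA from kidney tubule, urinary tract and blood cells, so an exo-miR value here has no single cell of origin. miR-16-5p was listed on all 5 days and miR-486 on 2 days, days 1 and 3.

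A miRNA guides Argonaute to messenger RNAs mainly through its seed, bases 2 to 8 of the mature strand. miR-16-5p is the best known member of the miR-15/16 family, which restrains cell cycle genes and the survival factor Bcl2, and it is made in most tissues. It is also one of the most abundant miRNAs of red blood cells and of hemolysed plasma. miR-486 is enriched in erythroid cells and in striated muscle, and in mammals its gene lies inside the ankyrin gene Ank1. Red cells also hold very high levels of miR-451 and miR-144, which come from 1 shared erythroid transcript. The comparison asked whether miR-16-5p and miR-486 moved together or apart between sham and IRI rats.

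The mature miR-16-5p sequence is shown with the other rat miRNAs of the RefSeq table (build GRCr8) that carry its seed. The seed is in capitals in each of the 5 sequences.
rno-miR-16-5p: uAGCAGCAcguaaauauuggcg
rno-miR-15b-5p: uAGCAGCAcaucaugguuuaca
rno-miR-195-5p: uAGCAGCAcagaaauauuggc
rno-miR-497-5p: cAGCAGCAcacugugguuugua
rno-miR-322-5p: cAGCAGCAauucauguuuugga
The mature miR-16-5p lies at chr2:155555343-155555364 on the plus strand of GRCr8, in a hairpin within the gene Smc4 and next to Mir15b. The hairpin is printed below with the mature strand in capitals (chr2:155555327-155555421).
Mir16 hairpin: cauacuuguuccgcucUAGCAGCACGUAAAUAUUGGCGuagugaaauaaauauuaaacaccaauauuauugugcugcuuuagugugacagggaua
Of these 5 seed relatives, 1 was listed in the urine tables, miR-16-5p itself. Of the miR-15/16 list, which also holds miR-15a-5p and passenger strands, 1 of 8 names was listed on any day. The RefSeq table matched 1 of the 2 members. The deposited reads had been aligned to an earlier rat genome, so these coordinates belong to the printed sequences only.

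The values were scaled read values, made separately for each day, and in every library the low values were whole multiples of 1 step, and this step was read as a single sequence read. The reads listed per library ran from 935 to 2125 in sham and from 11165 to 50705 in IRI rats at day 1. They ran from 696 to 1955 and from 1122 to 10542 at day 2, and from 289 to 909 and from 691 to 12739 at day 3. Day 7 gave 211 to 981 reads in sham and 431 to 837 in IRI rats, and day 14 gave 666 to 1796 and 651 to 1157. The day 1 IRI libraries were thus all deeper than the day 1 sham libraries. A share with a binomial interval is therefore given beside each value, and these intervals cover counting error only. The values come from whole urinary exosome preparations, in which more vesicles from a source and more miR-16-5p per vesicle cannot be told apart.

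miR-16-5p was higher in all 3 IRI rats than in any sham rat at day 1. The scaled value was 8023, 12463 and 11238 in sham rats 3, 6 and 9, from 11, 31 and 12 reads. It was 77694, 33988 and 32477 in IRI rats 1, 2 and 13, from 1871, 444 and 1429 reads. The group means were 10575 ± 2293 (SD, n = 3) in sham and 48053 ± 25681 (SD, n = 3) in IRI rats, a ratio of 4.54. IRI rat 1 was the highest, and the other two IRI rats lay close together and still above the highest sham rat. As a share of all listed reads, miR-16-5p took 0.917%, 1.46% and 1.28% in sham rats and 5.24%, 3.98% and 2.82% in IRI rats, a ratio of the means of 3.29. The highest sham interval ended at 2.23% (sham rat 9, exact Clopper-Pearson 95%), below the lowest IRI interval, which began at 2.68% (IRI rat 13). Among the listed miRNAs of a library it stood at place 15 to 18 in sham rats and at place 5 to 9 in IRI rats.

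**Figure D1:**
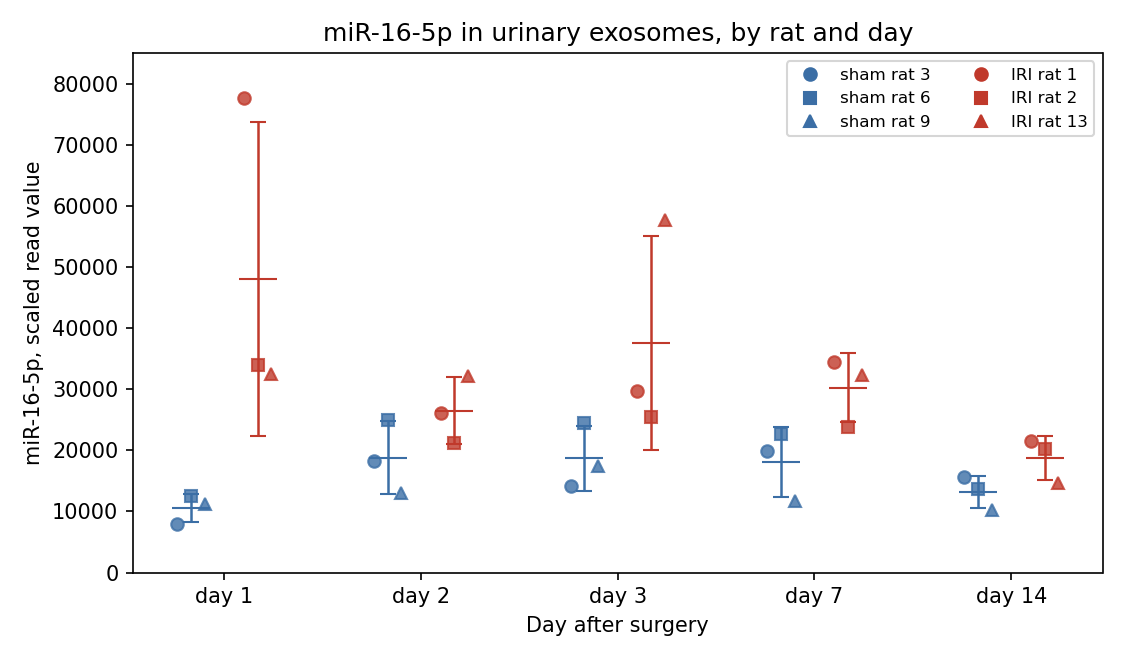
The scaled read value of miR-16-5p (vertical axis) in each rat at 5 days after surgery (horizontal axis), with sham in blue and IRI in red. Horizontal marks with bars are the mean ± SD of 3 rats. At day 1 the IRI rats sit between 32477 and 77694 and the sham rats between 8023 and 12463, and at day 14 the groups overlap.

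In limma over all 110 miRNAs of the day 1 table, the IRI minus sham difference of miR-16-5p was 2.03 (SE 0.44) on the log2(value + 500) scale. It ranked 4 by p-value, with an unadjusted p of 0.00322 and an adjusted p of 0.0695, so it did not pass the threshold of 0.05. Of all miRNAs of that day, 0.909% passed (1 of 110), and 16.4% had all IRI rats above all sham rats (18 of 110). That count was 7 with the filter on at least 5 libraries, 31 without sham rat 6 and 29 without sham rat 9. By share of listed reads, 12.7% of the miRNAs were above in every IRI rat. Under the alternatives tried, the adjusted p ran from 0.0521 to 0.216 and the difference from 1.63 to 2.25, always higher in IRI rats.

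At day 2 the groups came closer. The value was 18310, 24957 and 13035 in sham rats 3, 6 and 9, from 14, 46 and 19 reads. It was 26136, 21179 and 32116 in IRI rats 1, 2 and 13, from 109, 32 and 305 reads. IRI rat 2 lay below sham rat 6, so the values overlapped, with a ratio of the means of 1.41. The shares were 2.01%, 2.68% and 0.972% in sham rats and 2.84%, 2.85% and 2.89% in IRI rats, and by share all IRI rats were above all sham rats, although the intervals of sham rats 3 and 6 overlapped those of all IRI rats. The IRI shares were nearly equal to each other (SD 0.0279 percentage points). At day 2, 1.16% of the miRNAs had all IRI values above all sham values, and 8.14% did by share.

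At day 3 the IRI rats were again above the sham rats. The value was 14146, 24547 and 17409 in sham rats 3, 6 and 9, from 15, 23 and 6 reads. It was 29640, 25461 and 57612 in IRI rats 1, 2 and 13, from 24, 27 and 385 reads. The ratio of the means was 2.01, and IRI rat 2 was only slightly above sham rat 6. By share the sham rats had 1.65%, 2.67% and 2.08% and the IRI rats 3.47%, 3.17% and 3.02%, so the high value of IRI rat 13 was not a high share of its own library. The groups did not overlap on either scale, as was the case for 6.94% of the miRNAs of that table by value and 8.33% by share.

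At day 7 the value was 19961, 22609 and 11640 in sham rats 3, 6 and 9, from 5, 18 and 8 reads. It was 34523, 23828 and 32376 in IRI rats 1, 2 and 13, from 17, 12 and 27 reads. The groups did not overlap and the ratio of the means was 1.67, with shares of 2.37%, 1.83% and 1.23% against 3.65%, 2.78% and 3.23%. At day 7, 10.3% of the miRNAs had all IRI rats above all sham rats by value, and 10.3% by share. These libraries were shallow, and the interval of sham rat 3 ran from 0.774% to 5.44%.

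At day 14 the groups overlapped on both scales. The value was 15571, 13680 and 10275 in sham rats 3, 6 and 9, from 12, 25 and 7 reads. It was 21483, 20152 and 14733 in IRI rats 1, 2 and 13, from 23, 15 and 16 reads. IRI rat 13 lay below sham rat 3, and the ratio of the means was 1.43. The shares were 1.69%, 1.39% and 1.05% in sham rats and 1.99%, 2.3% and 1.41% in IRI rats. At that day 11.4% of the miRNAs had all IRI rats above all sham rats by value, and 11.4% by share.

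**Figure D2:**
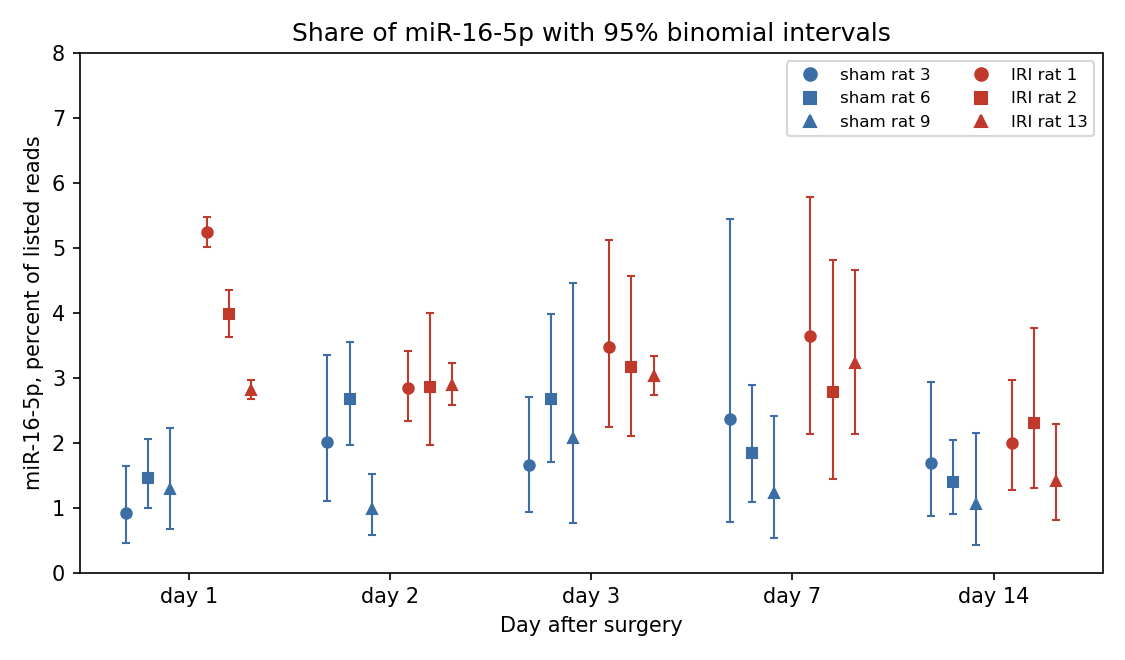
miR-16-5p as a percent of the listed reads of each library (vertical axis) by day after surgery, with exact 95% binomial intervals, sham in blue and IRI in red. The day 1 intervals of the groups are apart, from 2.23% at the top of sham to 2.68% at the bottom of IRI, while those of the shallow libraries of day 7 are wide and overlap.

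None of these later differences passed the test in limma. The log2 difference was 0.51 (SE 0.58, adjusted p = 0.797) at day 2, 0.93 (SE 0.71, adjusted p = 0.742) at day 3, 0.76 (SE 0.59, adjusted p = 0.781) at day 7 and 0.50 (SE 0.43, adjusted p = 0.697) at day 14. Single rats moved these values, to 0.28 at day 2 and 0.48 at day 7 without sham rat 9, and to 0.58 at day 3 without IRI rat 13. Without sham rat 9 the day 14 value was 0.34. Over all miRNAs 1.16% passed at day 2, 1.39% at day 3 and 2.94% at day 7. None passed at day 14 in limma (0% of 79, with 9 at an unadjusted p under 0.05). The mean of the IRI rats was above that of the sham rats on all 5 days. Since the same rats were used each day, the days are not separate evidence of a direction.

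Averaged over the 5 days, each IRI rat was above each sham rat. How many other miRNAs had rat means apart in this way was not counted. The mean log2(value + 500) was 13.88, 14.24 and 13.67 in sham rats 3, 6 and 9 and 15.07, 14.61 and 14.95 in IRI rats 1, 2 and 13. This comparison of rat means, chosen after the data were seen, gave a difference of 0.95 (SE 0.31, adjusted p = 0.165 in limma) and rank 5 of 56 miRNAs, of which 3.57% passed. Over its alternatives the adjusted p ran from 0.0539 to 0.493.

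The IRI minus sham difference at day 1 was set against that of each other day in 1 limma fit of all 30 libraries. It exceeded the day 2, 3, 7 and 14 differences by 1.52, 1.1, 1.27 and 1.54 on the log2 scale (SE 0.61 each), with adjusted p-values of 0.360, 0.852, 0.436 and 0.341. The day 1 difference was thus not shown to differ from the later ones. The day 3 contrast was 0.58 without IRI rat 1, 1.67 without IRI rat 13 and 0.45 with libraries recentred on their median, and the day 2 and day 7 contrasts were 0.96 and 0.81 with libraries scaled to the same total. Of the 56 miRNAs in that limma fit, 0% passed for days 2, 3 and 7, with 6, 0 and 6 at an unadjusted p under 0.05, and 1.79% passed for day 14.

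To order the levels across days, miR-16-5p was expressed as a percent of the reads of the 56 miRNAs listed on every day. The order was IRI day 1 (4.19% ± 1.24), IRI day 7 (3.31% ± 0.45), IRI day 3 (3.28% ± 0.24), IRI day 2 (3.09% ± 0.17), sham day 3 (2.19% ± 0.53), IRI day 14 (1.97% ± 0.48), sham day 2 (1.95% ± 0.88), sham day 7 (1.85% ± 0.58), sham day 14 (1.42% ± 0.32) and sham day 1 (1.27% ± 0.29), each the mean ± SD of 3 rats. All neighbours in this order overlapped in their ranges except IRI day 2 and sham day 3, which were 2.96% to 3.28% and 1.7% to 2.75%. The tables were scaled separately, so this order rests on shares and not on the scaled values.

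Lanes were largely split between the groups, with lanes 2 and 5 holding IRI libraries only, so lane and group cannot be told apart over most of the series. In the pairs that shared a lane, miR-16-5p was 32477 in IRI rat 13 and 11238 in sham rat 9 at day 1 (ratio 2.89). At day 2 the same rats had 32116 and 13035 (ratio 2.46), and at day 14 IRI rat 2 had 20152 and sham rat 3 had 15571 (ratio 1.29). The IRI library was the higher of each of these 3 pairs. The pairs of days 1 and 2 were the same rats, so the 3 pairs are not separate. How many other miRNAs were higher in all 3 IRI libraries was not counted.

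miR-486 was far rarer than miR-16-5p in every library and was not higher in the IRI rats as a group. At day 1 its value was 1459, 402 and 936 in sham rats 3, 6 and 9, from 2, 1 and 1 reads. In IRI rats 1, 2 and 13 it was 0, 536 and 23, from 0, 7 and 1 reads. IRI rat 1, which had the most miR-16-5p, had no miR-486 read among 35681, which allows a share of up to 0.0084%. The shares were 0.167%, 0.0471% and 0.107% in sham rats and 0%, 0.0627% and 0.0020% in IRI rats, so IRI rat 2 overlapped the sham rats. In lane 4, which held a rat of each group at day 1, the value was 23 in IRI rat 13 and 936 in sham rat 9.

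The day 1 limma difference for miR-486 was −1.08 (SE 0.46, adjusted p = 0.370), the opposite sign to miR-16-5p, and it did not pass. Its size depended on the constant added before the log and ran from −3.96 to −0.42 over the alternatives. No fold is given, since each sham value was under the worth of 3 reads in its library, which was 2188, 1206 and 2809. By share of listed reads, the exact binomial interval of sham rat 3 began at 0.0202%. That was above the interval of IRI rat 13, which ended at 0.0110%, and above the 0.0084% allowed in IRI rat 1. The intervals of sham rats 6 and 9 began lower, at 0.0012% and 0.0027%, and overlapped the range of IRI rats 1 and 13. The interval of IRI rat 2, 0.0252% to 0.129%, overlapped that of every sham rat. With 4 sham reads in all, a lower level in the IRI rats as a group was not shown.

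At day 3 miR-486 was 943, 1067 and 0 in sham rats 3, 6 and 9, from 1, 1 and 0 reads. It was 0, 0 and 299 in IRI rats 1, 2 and 13, from 0, 0 and 2 reads. The zeros allow shares of up to 1.04% in sham rat 9, 0.434% in IRI rat 1 and 0.352% in IRI rat 2, which are above every share measured for miR-486. The groups overlapped, and the limma difference was −0.83 (SE 0.75, adjusted p = 0.772). The day 1 difference was lower than that of day 3 by −0.24 (SE 0.83, adjusted p = 0.989), where limma passed 0% of 69 miRNAs, with 3 at an unadjusted p under 0.05. Without sham rat 9 this value was 0.32 and without IRI rat 13 it was 0.14, so its sign rested on single rats.

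**Figure D3:**
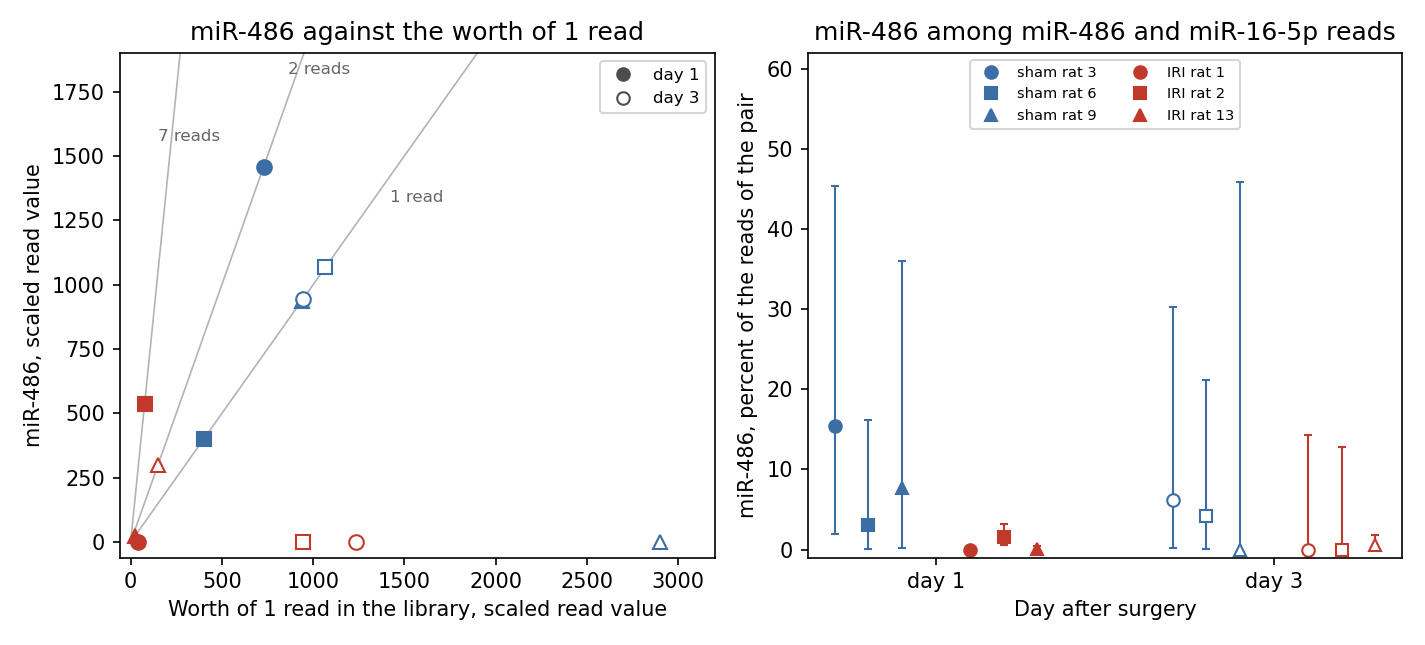
Left, the scaled value of miR-486 in each library of day 1 (filled) and day 3 (open) against what 1 read was worth there, with grey lines for 1, 2 and 7 reads: the sham points (blue) lie on 0, 1 or 2 reads. Right, miR-486 as a percent of the reads of miR-486 and miR-16-5p by day, with exact 95% intervals: at day 1 the sham points run from 3.12% to 15.4% and the IRI points (red) from 0% to 1.55%.

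The pair was also compared within each library, where the scaling of the library falls out apart from the constant. The log2 ratio of miR-486 to miR-16-5p, with 500 added to each, was −2.12, −3.85 and −3.03 in sham rats 3, 6 and 9 at day 1. It was −7.29, −5.06 and −5.98 in IRI rats 1, 2 and 13, below every sham rat. The means were −3.0 ± 0.86 and −6.11 ± 1.12 (SD, n = 3), a difference of −3.11 with a two-sided exact permutation p of 0.1, which is the smallest p that 3 against 3 rats allow. This difference is that of miR-486 (−1.08) less that of miR-16-5p (2.03). The groups overlapped on miR-486, and its sham values were under the worth of 3 reads. The size depended on the constant, at −2.31 with 2000, −4.84 with 50 and −6.00 with 0.5 read. The ratio is therefore no measure of miR-486 apart from miR-16-5p, and the design cannot reach p under 0.05.

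At day 3 the ratio was −3.34, −4.00 and −5.16 in sham rats 3, 6 and 9 and −5.91, −5.70 and −6.18 in IRI rats 1, 2 and 13. The difference was −1.76 with an exact permutation p of 0.1, again the smallest possible and 0.1 after Benjamini-Hochberg adjustment over both days. It is the miR-486 difference (−0.83) less that of miR-16-5p (0.93). miR-486 was 0 in sham rat 9 and in IRI rats 1 and 2, so their ratios hold only miR-16-5p and the constant. The border between the groups, sham rat 9 and IRI rat 2, therefore says nothing on miR-486. With a constant of 50 in place of 500 the day 3 groups overlapped (difference −2.94, exact permutation p = 0.2).

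A read share with no constant, chosen after the data were seen, gave the same order at day 1. miR-486 made up 2 of 13, 1 of 32 and 1 of 13 reads of the pair in sham rats 3, 6 and 9, or 15.4%, 3.12% and 7.69%. In IRI rats 1, 2 and 13 it made up 0 of 1871, 7 of 451 and 1 of 1430 reads, or 0%, 1.55% and 0.0699%. The day 1 groups were apart (exact permutation p = 0.1), but the interval of sham rat 6, 0.0791% to 16.2%, covered that of IRI rat 2, 0.626% to 3.17%. A lone miR-486 read gave the 3.12% of sham rat 6 and the 7.69% of sham rat 9. The IRI rats had 1871, 451 and 1430 reads of the pair, so 1 read weighed far less there. Since the other miRNA of the pair sets most of this total, the order is no measure of miR-486 by itself. Other rare miRNAs were not compared in this way. At day 3 the shares were 6.25%, 4.17% and 0% in sham and 0%, 0% and 0.517% in IRI rats, and they overlapped (exact permutation p = 0.4).

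Across the 6 rats of day 3, miR-486 and miR-16-5p had a Pearson r of −0.20 (exact permutation p = 0.767) and a Spearman rho of −0.27 (exact permutation p = 0.617), and r was 0.09 without the 2 rats farthest from the median of miR-16-5p. Over the alternatives r ran from −0.79 (exact permutation p = 0.0583, constant of 0.5 read) to −0.06, and with equal library totals it was −0.54, or −0.92 without the 2 farthest rats. With 4 miR-486 reads in all on that day, no relation could be read from these values. The sham and IRI rats adjoined each other on miR-16-5p at day 3 (24547 and 25461 at the border) without overlapping, so this r carries the group difference. No r over rats is given for day 1, where a wide gap in miR-16-5p, from 12463 to 32477, parted the rats into clusters of 3.

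Apart from miR-16-5p, no miRNA of a red cell list separated the sham and IRI rats on any day, nor did most other miRNAs. At day 1, 18 of 110 miRNAs were higher and 4 lower in every IRI rat. At days 2, 3, 7 and 14, 1, 5, 7 and 9 were higher and 10, 3, 2 and 9 lower. These were of 86, 72, 68 and 79 miRNAs. Of the 10 members of the red cell list 5 were listed on any day, namely miR-16-5p, miR-486, miR-92a-3p, miR-93-5p and miR-25-3p. The 3 that define the erythroid lineage most sharply, miR-451-5p, miR-144-3p and miR-144-5p, were in none of the tables used here, nor were miR-185-5p and miR-363-3p. Each listed miRNA had reads in 3 or more of a day's 6 libraries, so a miRNA outside them may still have had reads. miR-92a-3p and miR-25-3p belong to the miR-17-92 and miR-106b-25 families of proliferating cells, and miR-93-5p shares the miR-106b-25 transcript.

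miR-92a-3p was 2809 to 3647 in sham and 2373 to 4588 in IRI rats at day 1, from 3 to 8 and 31 to 202 reads, so it overlapped there. miR-25-3p was 729 to 936 in sham and 208 to 1608 in IRI rats, and miR-93-5p was 729 to 1206 and 536 to 1908. On all 12 of the days these other 3 miRNAs were listed, counted for each of them, the sham and IRI rats overlapped. Most miRNAs of each day overlapped likewise. Their log2 differences at day 1 were −0.04 (SE 0.34) for miR-92a-3p, 0.03 (SE 0.47) for miR-25-3p and 0.31 (SE 0.42) for miR-93-5p. At day 2 miR-93-5p had the largest difference of the list, 2.29 (SE 0.91, adjusted p = 0.363), with 0 to 3255 in sham and 2398 to 9266 in IRI rats.

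**Figure D4:**
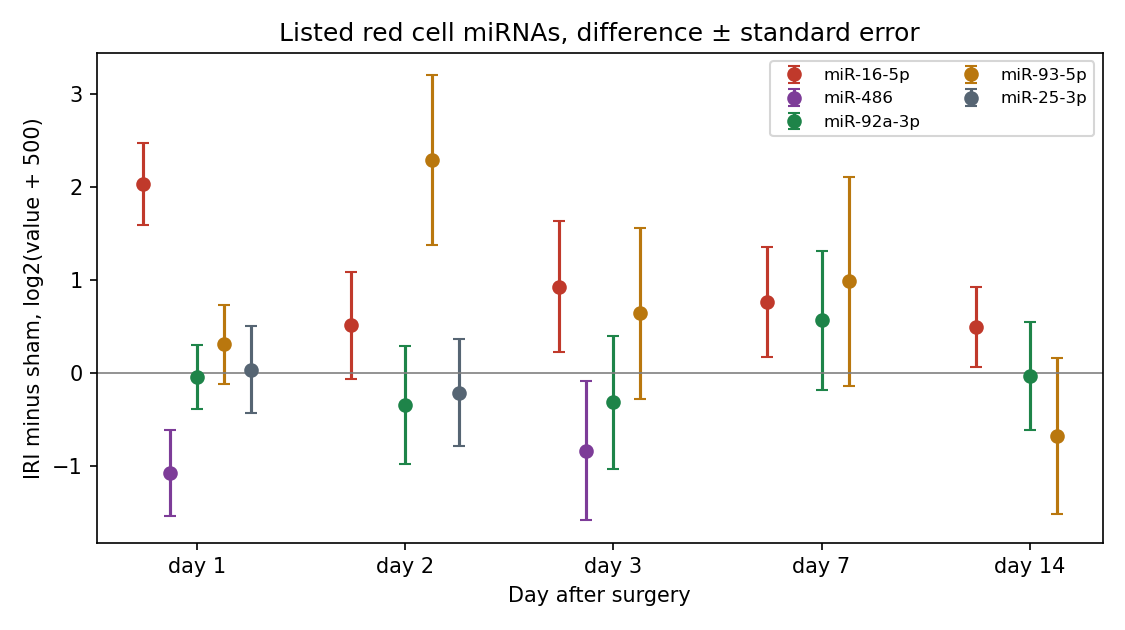
IRI minus sham difference in log2(value + 500) ± standard error from limma (vertical axis) for the 5 listed red cell miRNAs, by day after surgery. At day 1 miR-16-5p is at 2.03, miR-486 at −1.08 and the other three between −0.04 and 0.31.

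No member of the red cell list passed the adjusted threshold in limma on any day, with 1 at an unadjusted p under 0.05 at day 1 (miR-16-5p), 1 at day 2 (miR-93-5p) and 0 later. Over all miRNAs 13 of 110 and 9 of 86 were at an unadjusted p under 0.05 on those days. The median log2 difference of the listed members was 0.03, 0.15, 0.16, 0.76 and −0.03 at days 1, 2, 3, 7 and 14. It was 0.30, 0.11, 0.13, −0.05 and −0.09 for all miRNAs of those days. The list medians rest on 5, 4, 4, 3 and 3 members and include miR-16-5p. The day 7 median was the value of miR-16-5p itself, with 0.57 for miR-92a-3p and 0.98 for miR-93-5p. At day 1 the list as a whole took 1.67% to 2.12% of the listed reads in sham and 3.48% to 5.56% in IRI rats. Without miR-16-5p and miR-486 it took 0.535% to 0.612% in sham and 0.317% to 0.665% in IRI rats. miR-16-5p thus carried the day 1 difference of the list. The part of red cells in the miR-16-5p difference was not tested.

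Markers of other blood and vessel cells were sparse. Of 7 leukocyte and platelet miRNAs 2 were listed, and at day 1 miR-142-3p, made in all blood cell lineages, was 0 to 1873 in sham and 0 to 386 in IRI rats, and miR-342-3p was 0 to 936 and 623 to 1136. At day 2 miR-142-3p was 0 to 1308 in sham and 0 to 3357 in IRI rats, and miR-342-3p was 0 to 1372 and 0 to 105. At day 3 miR-142-3p was 0 to 5803 and 0 to 2829, and miR-342-3p was 0 to 1067 and 0 to 943. The groups overlapped for both miRNAs on each of these days, and summed over the list they took 0% to 0.321% in sham and 0.0420% to 0.132% in IRI rats at day 1. Neither of the 2 endothelial miRNAs, the arms of miR-126a, was listed on any day.

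Since miR-486 is also a muscle miRNA, striated muscle markers were read beside it. Of 7 there were 2 listed on any day. miR-206-3p, of skeletal muscle, was 0 to 402 in sham and 0 to 995 in IRI rats at day 1 and 1298 to 2189 and 0 to 1343 at day 14. miR-1b was 0 to 1067 and 0 to 3772 at day 3. All of these overlapped between the groups.

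All 12 of the 12 miRNAs on the kidney tubule list were listed on at least 1 day, which does not give their cell of origin in urine. At day 1, 3 of the 12 were higher in every IRI rat than in any sham rat, beside 16.4% of all miRNAs. These were miR-200c-3p (402 to 936 in sham, 3062 to 14558 in IRI rats) and miR-200b-3p (729 to 5619 and 6603 to 20304), of the epithelial miR-200 family, and miR-30e-5p (2188 to 7237 and 7392 to 13779). At day 3 they were miR-200a-3p (6404 to 16975 and 17290 to 118217) and miR-200c-3p (0 to 2135 and 2470 to 40852). That was 2 of 12, beside 6.94% of all miRNAs of that day. None was apart at days 2 and 7. At day 14 miR-192-5p and miR-10b-5p, 2 of 12, were lower in every IRI rat, as were 11.4% of all miRNAs (9 of 79). No tubule miRNA passed the adjusted threshold in limma on any day, with 1 of 12 at an unadjusted p under 0.05 at day 1 and 1 of 12 at day 3, beside 13 of 110 and 5 of 72 of all miRNAs. The tubule list took 11.8% to 14.7% of listed reads in sham and 8.97% to 19.5% in IRI rats at day 1.

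The miRNAs whose pattern was most like that of miR-16-5p were found by the Pearson r of day-centred log2(value + 500) over 30 libraries, among 55 others listed on every day. They were miR-21-5p (0.57), miR-200c-3p (0.55), miR-24-3p (0.53), let-7d-5p (0.51) and miR-26a-5p (0.51). For miR-486, over the 12 libraries of days 1 and 3 and 68 others, they were miR-99a-5p (0.69), miR-328a-3p (0.63), miR-378a-3p (0.57), miR-151-3p (0.52) and miR-23b-3p (0.52). By this measure miR-16-5p stood last of the 68 for miR-486, at −0.59. These coefficients are descriptions: the libraries share rats, depth and the sham to IRI difference, and miR-486 rests on 16 reads in all.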

How the data were processed

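Small RNA libraries (QIASeq kit) were made from urinary exosome RNA, 6 rats at 5 days. Per the methods and labels the authors trimmed adaptors with Cutadapt, aligned reads to rat genome version 5 with Bowtie and the miRDeep2 mapper, counted with HTSeq and tested with edgeR. Tool versions, and whether molecular identifiers were used, are not given in the sources used here. The deposited signal values are the authors' scaled reads, 1 table per day, and the scaling method is not given in the sources used here. Columns of the authors' own fold changes, p-values and FDR were not used. Because the scaled values are not counts, limma 3.58.1 (R 4.3.3) was run on log2(value + 500) for all miRNAs of a table, with Benjamini-Hochberg adjustment and a threshold of 0.05. Reads were recovered by dividing by the worth of 1 read, of which low values (up to 20 reads) were whole multiples within 0.1 in 100% of cases. Shares have exact 95% Clopper-Pearson intervals, and a share of 0 allows 3 reads. Ratios and correlations used exact permutation tests (SciPy 1.17.1), two-sided. The limma fit of IRI against sham was checked on simulated libraries, and the exact permutation test on a small made-up case. Replicates are separate rats, and animal numbers pair the days. Deviations of 1 rat on different days correlated on average by −0.02 (rat 1) to 0.24 (rat 13) over 56 miRNAs. Different rats were not compared in this way, so these values do not test the pairing. No libraries were duplicates. Named miRNAs were both members in every library, list members (all where at most 4 were listed that day, otherwise those whose groups did not overlap), and the 5 most alike. Alternatives were other constants, scalings, a filter, an intensity trend, leaving out each rat and the rat as a block. The members and lists were chosen with earlier results of these data known.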

Additional observations from a re-analysis of the deposited data

How the results depend on the processing

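miR-16-5p kept its direction at every day and did not pass the threshold under any of the 13 alternatives, and the same held for miR-486 at day 1 (13) and at day 3 (12, since miR-486 is not in the filter on 5 libraries there). The number of miRNAs passing was less stable. A constant of 50 gave 9 at day 1, 3 at day 14 and 1 for the mean of 5 days. A constant of 2000 gave 2, 0, 1 and 2 at days 2, 3, 7 and 14 and 1 for the mean of days. A constant of 0.5 read gave 2, 2 and 0 at days 1, 2 and 3. Scaling to the same total gave 4 at day 1 and 0 for the mean of days, and recentring on the median gave 4 at day 1 and 1 at day 14. The filter on 5 libraries gave 0 at days 2, 3 and 7 and 1 for the mean of days. The intensity trend gave 0, 2, 2, 0 and 4 at days 1, 2, 3, 7 and 14 and 4 for the mean of days. Leaving out each rat gave 1 to 3 at day 1, 0 to 1 at days 2, 3 and 14, and 0 to 2 at day 7 and for the mean of days. The number with all IRI rats above all sham rats ran from 7 to 31 at day 1 (18 as reported), 0 to 10 at day 2 (1), 4 to 10 at day 3 (5), 5 to 10 at day 7 (7) and 6 to 15 at day 14 (9). The causes were not tested. Over all its alternatives the day 1 less day 3 difference of miR-486, −0.24, ran from −2.32 to 0.32. Without single rats it ran from −0.84 to 0.32, and was 0.32 without sham rat 9 and 0.14 without IRI rat 13.

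With the rat as a replicate block, the day 1 difference of miR-16-5p against days 2, 3, 7 and 14 had adjusted p-values of 0.275, 0.780, 0.408 and 0.262 and that of miR-486 against day 3 0.994 (−0.24), and no call changed. The paired change of the ratio from day 3 to day 1 within each rat differed between the groups by −1.35 (exact permutation p = 0.3), a comparison chosen after the data were seen. Depth limits miR-486 most: its sham reads were 4 at day 1 and 2 at day 3.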
